A study of Mus musculus with 7 samples.

Results

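Long non-coding RNAs (lncRNAs) are transcripts that, like messenger RNAs, are often spliced and polyadenylated but are not annotated to encode a protein. The members described here are the abundant ones on the autosomes in resident peritoneal macrophages. They are the rows of the count table that are typed lncRNA, lie on chromosomes 1 to 19 and reach a mean of 5 CPM (a gene's counts divided by the total of its library and scaled by 1000000) in either group of libraries. The rule was met by 224 of the 10811 autosomal lncRNA rows, of which 4436 had a read, among 57010 rows in all. The members were thus chosen by their measured levels, which are given as a description. A member that reached 5 CPM in 1 group only had to differ between the group means.

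The libraries are poly-A RNA-seq of resident macrophages positive for Tim4, from the peritoneal cavity of C57BL/6 mice. There were 4 libraries from mice at day 12 after injection of m204 MTO and 3 libraries from mice in steady state, with no other allele or agent given for either group. What MTO stands for is not written in the labels; the series' title speaks of colorectal cancer in the peritoneum. Sorting used Tim4, CD11b and MHC class II, with a stated purity over 97%, and directional libraries were read as 100-nt single reads.

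Some lncRNAs act in the nucleus, where Neat1 holds together paraspeckles and Malat1 gathers at splicing speckles. Others are host genes, whose introns release small nucleolar RNAs (snoRNAs) or microRNAs (miRNAs) while the spliced transcript may be unstable. Many lie head to head with, or antisense to, a protein-coding gene. In myeloid cells of mice, Morrbid is known to hold down the neighbouring gene Bcl2l11, which encodes the death-promoting protein Bim.

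Sequences are shown for the members on which the results below turn. The longest annotated transcript of 1700016F12Rik, the member with the largest called change, has 655 bases in 2 exons in GENCODE vM21, and its first 200 bases follow.
1700016F12Rik (transcript span chr5:96849505-96852938 in GRCm38, plus strand): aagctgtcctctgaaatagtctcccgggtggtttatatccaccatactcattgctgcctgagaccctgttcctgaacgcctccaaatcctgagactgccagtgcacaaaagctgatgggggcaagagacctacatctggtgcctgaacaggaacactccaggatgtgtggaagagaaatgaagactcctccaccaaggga

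Promoter windows, each running from 250 bases before to 50 bases after a gene's start, came from RefSeq in the build GRCm38.p6, which differs from the GRCm39 coordinates of the count table. A window was listed for 108 of the 224 members under their symbols. The match was by symbol only, so a RefSeq start may differ from the start of the counted gene. The windows of 6 strongly changed members were searched on both strands for AGGAAG (core of the PU.1 site, PU.1 being the lineage factor of macrophages), TGANTCA (AP-1), AGATAA (the site of GATA factors) and TTCNNNGAA (the site of STAT factors). Those with a match are shown, with the matches in capitals. None of the matches overlapped another.
Gm36723 (chr12:25355651-25355950, plus strand): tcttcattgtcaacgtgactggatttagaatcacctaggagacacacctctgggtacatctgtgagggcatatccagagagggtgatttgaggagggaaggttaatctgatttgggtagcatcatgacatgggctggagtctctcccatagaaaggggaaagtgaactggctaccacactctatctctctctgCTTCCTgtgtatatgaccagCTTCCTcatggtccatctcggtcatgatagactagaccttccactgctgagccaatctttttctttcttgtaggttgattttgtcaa
Morrbid (chr2:128429302-128429601, minus strand): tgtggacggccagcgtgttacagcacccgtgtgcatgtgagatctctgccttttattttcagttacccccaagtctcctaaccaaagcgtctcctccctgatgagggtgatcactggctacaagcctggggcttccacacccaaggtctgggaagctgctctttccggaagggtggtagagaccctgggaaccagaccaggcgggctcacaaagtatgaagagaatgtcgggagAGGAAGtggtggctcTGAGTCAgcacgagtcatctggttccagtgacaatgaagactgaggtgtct
Gm20619 (chr6:6248409-6248708, plus strand): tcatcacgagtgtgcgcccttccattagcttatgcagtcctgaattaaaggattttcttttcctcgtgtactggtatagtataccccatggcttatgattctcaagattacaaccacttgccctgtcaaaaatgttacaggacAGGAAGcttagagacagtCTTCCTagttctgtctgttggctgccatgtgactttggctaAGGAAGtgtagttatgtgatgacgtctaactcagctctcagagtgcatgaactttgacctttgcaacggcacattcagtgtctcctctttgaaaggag
Gm42031 (chr8:85131765-85132064, minus strand): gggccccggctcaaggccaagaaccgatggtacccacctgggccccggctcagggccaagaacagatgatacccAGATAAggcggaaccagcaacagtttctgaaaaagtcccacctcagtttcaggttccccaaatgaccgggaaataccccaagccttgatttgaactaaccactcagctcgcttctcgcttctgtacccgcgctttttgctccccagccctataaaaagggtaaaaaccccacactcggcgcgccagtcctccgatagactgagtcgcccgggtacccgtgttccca
AGGAAG was found in 3 of the 6 windows, against 35.4% of 32851 windows of all genes and 43.5% of 138 windows of members. TGANTCA was found in 1 of the 6, at the RefSeq start of Morrbid, against 7.8% of all windows and 5.1% of member windows. AGATAA was found in 1 of the 6, in Gm42031, against 11.2% of all windows and 9.4% of member windows. TTCNNNGAA was in 0 of the 6, against 8.3% of all windows. These are matches of letters and do not show that a factor was bound.

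Mature miRNAs whose genes lie inside members are shown with the seed, bases 2 to 8, in capitals. Their levels were not measured by these libraries.
miR-142a-5p (in Mir142hg): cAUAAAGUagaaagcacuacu
miR-142a-3p (in Mir142hg): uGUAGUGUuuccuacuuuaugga
miR-22-3p (in Mir22hg): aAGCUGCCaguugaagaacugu
miR-15a-5p (in Dleu2): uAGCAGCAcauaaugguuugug
miR-16-5p (in Dleu2): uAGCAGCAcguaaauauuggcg
miR-99a-5p (in Mir99ahg): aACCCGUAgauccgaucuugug
let-7c-5p (in Mir99ahg): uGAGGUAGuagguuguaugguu
miR-125b-5p (in Mir99ahg): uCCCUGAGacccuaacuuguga
The miR-15a-5p and miR-16-5p seeds are identical (AGCAGCA), and the others shown differ from these and from each other.

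The starts of snoRNA host genes are shown because such genes often begin transcription in a run of pyrimidines, a feature they share with genes of the translation machinery. Each line gives 10 bases before and 20 bases from the RefSeq start (GRCm38.p6), with any run of at least 6 C or T that begins within 10 bases of it in capitals.
Gas5 (chr1:161035156-161035185, plus strand): ccatctcagCCTTTCggagctgtgcggcat
Snhg1 (chr19:8723477-8723506, plus strand): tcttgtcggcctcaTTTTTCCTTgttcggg
Snhg5 (chr9:88522878-88522907, minus strand): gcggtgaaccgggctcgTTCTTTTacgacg
Snhg8 (chr3:123508317-123508346, minus strand): gttcagaagTCTCTTTggctgcgatccgcc
Snhg12 (chr4:132308668-132308697, plus strand): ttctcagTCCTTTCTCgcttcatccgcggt
Snhg16 (chr11:116671650-116671679, plus strand): gcgcaagcgcgatctcgTCCTTTCCgaggt
Zfas1 (chr2:167062924-167062953, plus strand): tgcgccccgggcggccgcaggtctcggctg
Snhg15 (chr11:6528741-6528770, minus strand): ctgtgaccgtaactttaagcacacgtgagc
Of 12 members that hold a snoRNA gene and have a window, 10 had such a run in at least 1 of their windows (11 of 15 windows). The share was 22.2% of the windows of all genes and 37.0% of those of members.

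The 7 libraries held 32077050 to 38586694 counts, so that the detection floor of 3 counts equalled 0.0777 to 0.0935 CPM. Floors cover counting error only. Mitochondrial transcripts took 0.858% of the counts of day 12 replicate 4, against 1.67% to 1.79% in the other day 12 libraries and 1.11% to 1.25% in steady state. Of the genes used in the sort, Timd4 averaged 500.1 ± 126 CPM at day 12 and 953.9 ± 75.9 CPM in steady state (SD, n = 4 and 3). Itgam, which encodes CD11b, averaged 2147 ± 365 CPM at day 12 and 1314 ± 117 CPM in steady state. Both were present in every library. Summed over 14 marker genes, B cell transcripts came to 25.5 to 61.5 CPM at day 12 and 7.38 to 12.1 CPM in steady state, the highest sum being in day 12 replicate 2. Of the 13 B cell markers tested, 10 were called higher. Neutrophil markers summed to 109 to 199 CPM at day 12 and 435 to 443 CPM in steady state. Nearly all of that sum was 1 gene, Csf3r (161 CPM at day 12 and 435.9 CPM in steady state on average). Of the 4 neutrophil markers tested, 2 (Csf3r and Mmp8) were called lower. The others tested, S100a8 and Elane, averaged 1.38 and 0.65 CPM at day 12 and 0.77 and 0.45 CPM in steady state, and were not called. S100a9, Retnlg, Ngp, Ltf and Cxcr2 had reads at day 12 only, at most 0.839 CPM (S100a9 in replicate 4). Camp had reads in steady state only, and Ly6g and Mpo were at 0 in every library. Markers of T and NK cells summed to 2.16 to 6.59 CPM at day 12 and 4.81 to 7.86 CPM in steady state. Of the 4 tested, Lck and Gzma were called higher and Cd28 lower, and Cd28 gave most of the steady-state sum (0.247 CPM at day 12 and 4.22 CPM in steady state on average). Markers of eosinophils and mast cells summed to 126 to 199 CPM at day 12 and 63.9 to 86.0 CPM in steady state, with Epx, Prg2 and Gata2 at 0. Nearly all of this sum was Hdc (160.5 CPM at day 12 and 76.3 CPM in steady state on average), and of the 3 tested, Hdc and Siglecf were called higher. The remaining one tested, Ccr3, averaged 0.542 CPM at day 12 and 1.32 CPM in steady state. It was not called (log2 fold change -1.30, edgeR adjusted p = 0.0825). Mesothelial and stromal markers reached at most 1.76 CPM at day 12 and 0.218 CPM in steady state. Those of colon epithelium reached at most 3.64 CPM at day 12 and 0.935 CPM in steady state. Most of the day 12 sum for colon was Cdh1 (2.01 CPM at day 12 and 0.128 CPM in steady state on average). Of the 2 colon markers tested, Cdh1 was called higher and Muc2 was not called. Epcam averaged 0.068 CPM at day 12 and 0.041 CPM in steady state, and Cdx2, Cdx1, Krt20 and Lgr5 were at 0 in every library. The part of these cells in the results below was not tested. In bulk samples, fewer cells of a type and less RNA per cell cannot be told apart.

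The comparison of day 12 with steady state asks how the lncRNAs of resident macrophages differed 12 days after MTO injection. A small number of highly expressed RNAs dominated. Neat1 and Malat1 were called higher at day 12, as were Morrbid, Mir142hg and Gata6os. Among rows to which no role is given here, 1700016F12Rik was found almost entirely at day 12 and was near the floor in steady state, and Gm20619 was low at day 12 and well expressed in steady state. In edgeR's quasi-likelihood test, fitted on all 15981 genes that passed the filter and adjusted over all of them, 53 members were called higher at day 12 and 22 lower, with 149 not called at an adjusted p of 0.05. Over all genes tested, 20.3% were called, 10.1% higher and 10.2% lower.

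Of the members, 33.5% were called (23.7% higher, 9.82% lower), of the 9413 autosomal protein-coding genes at the same level 22.3% (10.3% higher, 12.0% lower), and of the 1173 tested autosomal lncRNAs below that level 10.2%. Because the rule selects on the level in either group, no test was made of these shares. The members that reached 5 CPM in both groups numbered 167, with 32 called higher and 11 lower (25.7% called, 19.2% higher and 6.59% lower). Of the 39 that reached it at day 12 only, 21 were called higher, and of the 18 that reached it in steady state only, 11 were called lower. The groups did not overlap in 96 members (42.9%), against 34.4% of all genes tested.

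The median log2 fold change (day 12 over steady state) was 0.13 over the members and 0.00 over all genes tested, and the median size regardless of sign was 0.47 over the members and 0.29 over all genes tested. The tested autosomal lncRNAs below the members' level had a median of 0.19 and a median size of 0.49. At least 2-fold changes among called members were 25 higher and 11 lower. When each of the 7 libraries was left out in turn, 43 members were called every time, 31 higher and 12 lower. The count called higher was 35 and 34, and the count called lower 13 and 12, without steady-state replicate 2 and replicate 3. Just inside the threshold of the rule lay Gm47754 (5.18 CPM in its higher group), Gm12992 (5.30 CPM) and Gm2415 (5.38 CPM). Just outside lay 4933439C10Rik, Gm11696 and Gm12606, whose higher group means were 4.998, 4.96 and 4.96 CPM.

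**Figure D1:**
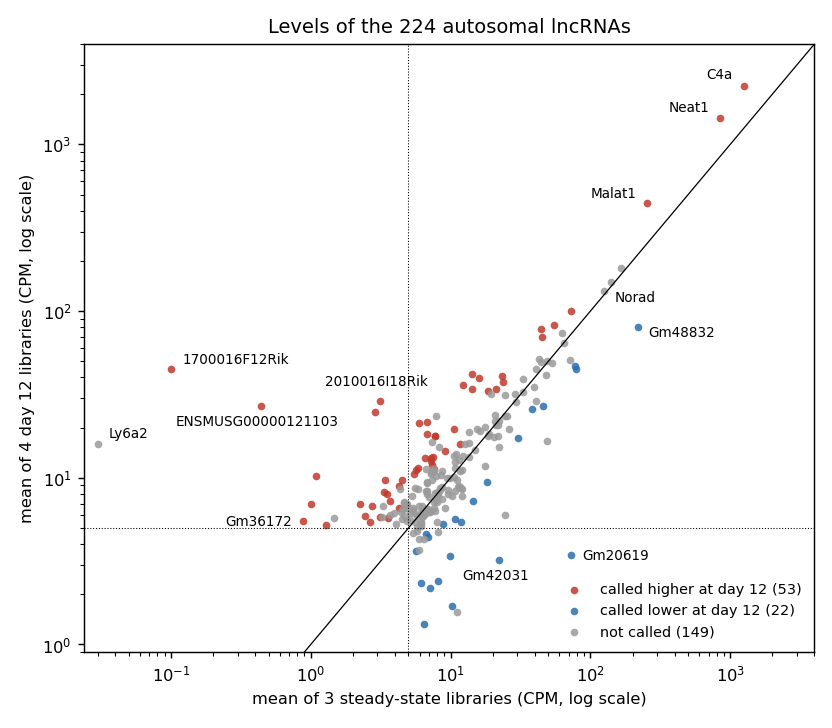
Each point is 1 of the 224 autosomal lncRNAs, with its mean over 4 day 12 libraries on the vertical axis and over 3 steady-state libraries on the horizontal axis, both in CPM on log scales; dotted lines mark 5 CPM and the solid line equal levels. Neat1 and Malat1 lie above the line of equal levels, 1700016F12Rik far to the left of it and Gm20619 far below it; Ly6a2, at 0 in every steady-state library, is drawn at the left edge.

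Members together took 0.891%, 0.745%, 0.840% and 0.746% of the counts in day 12 replicates 1 to 4, against 0.623%, 0.590% and 0.593% in steady-state replicates 1 to 3. All 4 day 12 shares were above all 3 of steady state. Without C4a and Neat1, the shares were 0.486%, 0.446%, 0.426% and 0.387% at day 12 and 0.411%, 0.392% and 0.373% in steady state, and the groups overlapped. The highest row, C4a (chr17:35028069-35042440 in GRCm39, minus strand), averaged 2245 ± 293 CPM at day 12 and 1250 ± 113 CPM in steady state (log2 fold change 0.82, SE 0.15, edgeR adjusted p = 0.00518). The table types it as lncRNA, although the name is that of a complement gene whose near-identical copy C4b stood at 22130 ± 2932 CPM at day 12 and 13130 ± 1163 CPM in steady state (log2 fold change 0.73, edgeR adjusted p = 0.0128). No source used here says how reads shared by the 2 copies were counted, so the C4a level is uncertain.

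Neat1 (chr19:5874736-5895898, minus strand) had 1594, 1173, 1749 and 1280 CPM at day 12, against 914, 809 and 815 CPM in steady state. Every day 12 library was above every steady-state library, with log2 fold change 0.76 (SE 0.17, edgeR adjusted p = 0.0116). Leaving out steady-state replicate 2 or 3 ended the call (adjusted p = 0.0612 and 0.0605). Malat1 (chr19:5845717-5852704, minus strand) had 467, 510.5, 501 and 299.7 CPM at day 12, against 318, 218 and 228 CPM in steady state. The lowest day 12 library, replicate 4, fell below the highest of steady state, so that the groups overlapped (log2 fold change 0.78, SE 0.20, edgeR adjusted p = 0.0241). The Malat1 call failed in 4 of the 7 fits that left out a library, with adjusted p of 0.0511 and 0.0505 without day 12 replicates 1 and 3 and 0.111 and 0.106 without steady-state replicates 2 and 3. Malat1 and the long form of Neat1 end without a poly-A tail, so their values here depend on what the poly-A selection retained. The protein-coding gene next to Neat1, Frmd8, had a log2 fold change of 0.19 (edgeR adjusted p = 0.419).

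Of the 10 members with the highest mean over all libraries, 6 were called: C4a, Neat1, Malat1, Gm48832, 6530402F18Rik and ENSMUSG00000121141. The share called was 33.5% of all members and 20.3% of all genes tested. ENSMUSG00000121141, which begins 286 bases after the end of Cmip on the same strand, had 101.9, 95.9, 98.0 and 106.9 CPM at day 12, against 73.0, 72.6 and 70.7 CPM in steady state. The groups did not overlap (log2 fold change 0.46, SE 0.09, edgeR adjusted p = 0.00828), and leaving out steady-state replicate 3 ended the call (adjusted p = 0.0531). The other four, Oip5os1, Gm36161, Norad and Gas5, did not pass the test.

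Norad, an RNA that binds Pumilio proteins, averaged 132 ± 21.2 CPM at day 12 and 125 ± 7.02 CPM in steady state. Oip5os1, known as Cyrano and for the turnover of miR-7, averaged 180.4 ± 45.0 CPM at day 12 and 165 ± 6.23 CPM in steady state. Chaserr, a less abundant member, did not pass either. It is known as lying upstream of the chromatin remodeller gene Chd2, and by the coordinates used here the 2 spans overlap. Chaserr averaged 49.3 ± 11.3 CPM at day 12 and 44.5 ± 1.13 CPM in steady state. In all 3 the groups overlapped. Gas5, a snoRNA host, averaged 73.8 ± 12.7 CPM at day 12 and 62.3 ± 2.04 CPM in steady state (log2 fold change 0.22, edgeR adjusted p = 0.265).

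Levels per length of exon, available for the 182 members (81.2%) whose identifier is in GENCODE vM21, ordered the RNAs differently. The counting may have used other exon lengths, since its annotation release is not given, so this order is uncertain. Neat1 was divided by all its annotated exon bases, including those of the long form. By these lengths, Mir142hg stood at 153 CPM per kb at day 12 and 86.2 CPM per kb in steady state, above Neat1 and Malat1. Neat1 had 69.8 CPM per kb at day 12 and 40.7 CPM per kb in steady state, and Malat1 had 63.7 CPM per kb at day 12 and 36.5 CPM per kb in steady state. Norad had 26.8 CPM per kb at day 12 and 25.4 CPM per kb in steady state. Among members with a length, C4a was the highest in both groups, at 362 CPM per kb at day 12 and 201 CPM per kb in steady state.

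1700016F12Rik (chr5:96997364-97000797 in GRCm39, plus strand), whose sequence is given above, had 45.1, 36.4, 42.8 and 54.8 CPM at day 12, against 0.150, 0.0276 and 0.125 CPM in steady state. The steady-state values stood for 5, 1 and 4 counts, next to the floor. The fitted log2 fold change was 8.76 (SE 0.33, edgeR adjusted p = 3.35e-06), with every day 12 library above every steady-state library. It begins 3538 bases after the end of Anxa3, an annexin gene on the same strand. Anxa3 itself averaged 282 ± 21.1 CPM at day 12 and 211 ± 16.8 CPM in steady state (log2 fold change 0.39, edgeR adjusted p = 0.0288).

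ENSMUSG00000121103 had 31.7, 16.5, 21.4 and 37.6 CPM at day 12, against 0.419, 0.525 and 0.374 CPM in steady state. The groups did not overlap (log2 fold change 5.89, SE 0.38, edgeR adjusted p = 4.79e-05). It lies on the strand opposite to Arid1b, a subunit of the BAF chromatin remodelling complex, which was lower at day 12 (log2 fold change -0.34, edgeR adjusted p = 0.0364). The row 2010016I18Rik had 31.4, 25.6, 22.5 and 36.2 CPM at day 12, against 3.92, 2.13 and 3.27 CPM in steady state, again without overlap (log2 fold change 3.20, SE 0.25, edgeR adjusted p = 9.06e-05). Dennd2d, a gene of the DENN family on the other strand of the same locus, was higher as well, at 32.3 ± 5.10 CPM at day 12 and 14.5 ± 2.47 CPM in steady state (log2 fold change 1.13, adjusted p = 0.00135).

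Further rises came from other rows to which no role is given here. Gm36486 averaged 24.97 ± 6.35 CPM at day 12 and 2.89 ± 0.939 CPM in steady state (log2 fold change 3.09), and Gm5547 averaged 6.97 ± 2.06 CPM at day 12 and 1.00 ± 0.226 CPM in steady state (2.78). Gm36723 averaged 10.2 ± 3.58 CPM at day 12 and 1.098 ± 0.470 CPM in steady state (log2 fold change 3.20). Its nearest tested protein-coding gene, Id2, lies 206616 bases away and encodes an inhibitor of DNA-binding factors. Id2 was also higher, with 215 ± 27.2 CPM at day 12 and 87.3 ± 14.7 CPM in steady state (log2 fold change 1.28, edgeR adjusted p = 0.000567). Gm47754 and Gm16287 had log2 fold changes of 1.98 and 1.496. In these 5 members the groups did not overlap, and edgeR adjusted p-values were between 0.000223 and 0.000709.

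Gm36172 lies head to head with Arg1, the arginase gene that is high in alternatively activated macrophages, with 73 bases between them. It had 6.92, 4.17, 6.38 and 4.66 CPM at day 12, against 0.778, 1.19 and 0.655 CPM in steady state. Its log2 fold change was 2.63 (SE 0.30, edgeR adjusted p = 0.000563). The arginase gene itself had 4894, 4312, 6618 and 4840 CPM at day 12, against 81.8, 112 and 119 CPM in steady state (log2 fold change 5.61, edgeR adjusted p = 9.15e-06). In both genes all day 12 libraries were above all steady-state libraries.

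Another head-to-head pair was 9330133O14Rik and Mvd, 203 bases apart. Mvd encodes an enzyme of the mevalonate pathway of cholesterol synthesis. The lncRNA had 37.5, 41.3, 45.9 and 43.6 CPM at day 12, against 15.3, 14.2 and 13.0 CPM in steady state (log2 fold change 1.55, SE 0.12, edgeR adjusted p = 8.93e-05). Mvd had 24.5, 23.9, 26.5 and 38.7 CPM at day 12, against 9.54, 9.59 and 9.82 CPM in steady state (log2 fold change 1.54, edgeR adjusted p = 0.000720). The groups overlapped in neither gene.

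**Figure D2:**
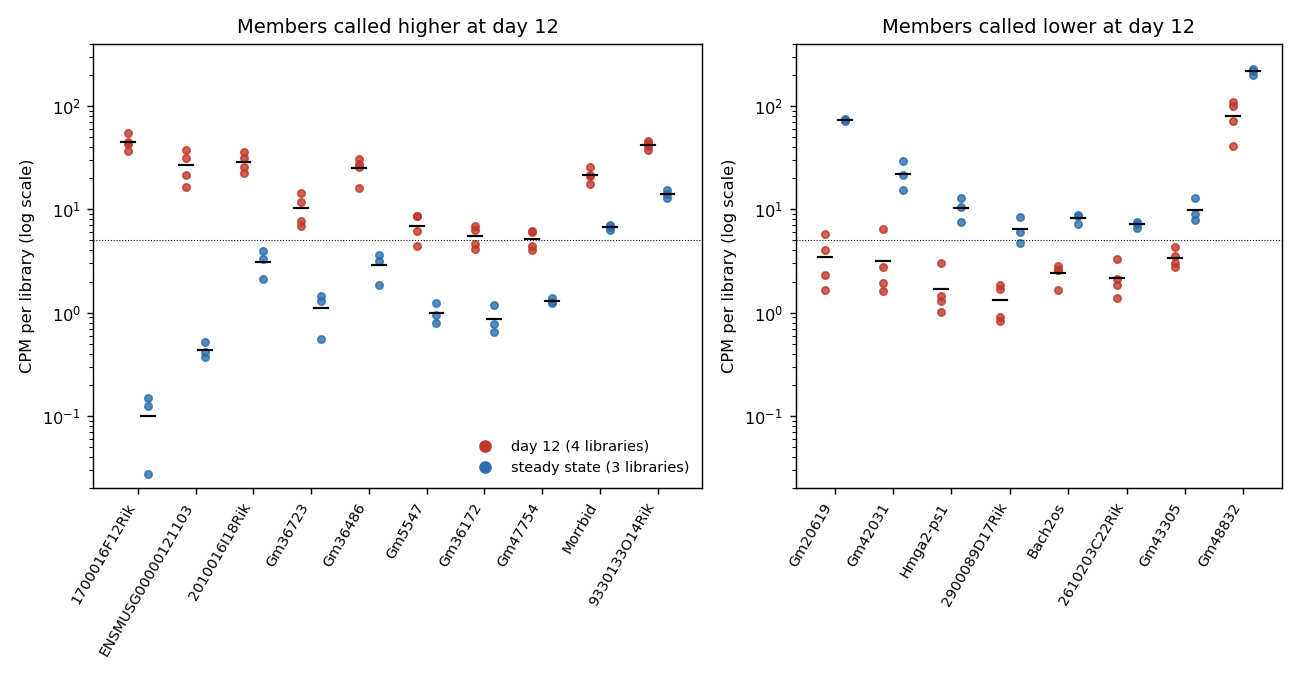
Points give the CPM of each library on a log scale for 10 members called higher (left panel) and 8 called lower (right panel) at day 12, with the mean as a bar and 5 CPM as a dotted line. In every member drawn, the 4 day 12 libraries and the 3 steady-state libraries do not overlap; 1700016F12Rik spans the widest range, between 0.0276 and 54.8 CPM.

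Of the members called lower, Gm20619 (chr6:6248659-6475978, plus strand) had 4.06, 5.81, 1.66 and 2.31 CPM at day 12, against 72.7, 72.0 and 74.8 CPM in steady state. It was the member with the largest called decrease (log2 fold change -4.43, SE 0.36, edgeR adjusted p = 0.000178), and the groups did not overlap. Its neighbour Slc25a13, a mitochondrial carrier gene 31485 bases away on the other strand, was lower too, at 16.3 ± 2.46 CPM at day 12 and 24.2 ± 2.07 CPM in steady state (log2 fold change -0.60, adjusted p = 0.0125). Gm48832 was the most abundant member among those called lower, with 99.6, 110, 72.1 and 41.4 CPM at day 12, against 230.5, 220.3 and 201 CPM in steady state (log2 fold change -1.46, SE 0.27, edgeR adjusted p = 0.00629). It ends 5003 bases before the start of Tent5a, a poly(A) polymerase gene on the same strand, which had a log2 fold change of -0.58 (edgeR adjusted p = 0.0337).

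Bach2os is antisense to Bach2, which encodes a transcriptional repressor of lymphoid and myeloid cells. It had 2.59, 2.84, 1.66 and 2.57 CPM at day 12, against 7.15, 8.78 and 8.64 CPM in steady state (log2 fold change -1.79, SE 0.21, edgeR adjusted p = 0.000585). Bach2 averaged 4.80 ± 0.121 CPM at day 12 and 10.7 ± 1.501 CPM in steady state (log2 fold change -1.18, adjusted p = 0.000919), without overlap of the groups in either gene. In 2900089D17Rik, opposite to Bri3, the log2 fold change was -2.29 (edgeR adjusted p = 0.00185), and in Bri3 it was -1.12 (0.00767). In 2610203C22Rik, opposite to the dehydrogenase gene Adhfe1, the directions differed: the lncRNA had a log2 fold change of -1.74 (edgeR adjusted p = 0.00199) and Adhfe1 2.04 (0.000853). Gm42031, Hmga2-ps1, Gm43305 and Gm35853 had log2 fold changes of -2.83, -2.63, -1.56 and -0.85, with edgeR adjusted p-values between 0.000709 and 0.00465 and no overlap of the groups. Gm42031 spread widely within steady state, at 15.5, 29.4 and 21.7 CPM.

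Of the members with a known part in immune cells, Morrbid (chr2:128020239-128344685, minus strand) had 25.9, 21.0, 21.7 and 17.6 CPM at day 12, against 6.79, 7.13 and 6.33 CPM in steady state. All day 12 libraries were above all of steady state (log2 fold change 1.65, SE 0.15, edgeR adjusted p = 0.000179). Bcl2l11, 15771 bases away on the other strand, had 45.2, 37.0, 48.3 and 41.0 CPM at day 12, against 48.4, 52.5 and 57.7 CPM in steady state. It did not pass the test (log2 fold change -0.32, edgeR adjusted p = 0.112).

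Gata6os is transcribed opposite to Gata6, the transcription factor gene that sets the identity of resident peritoneal macrophages. It had 41.0, 22.7, 43.9 and 29.4 CPM at day 12, against 15.9, 13.8 and 13.0 CPM in steady state (log2 fold change 1.25, SE 0.23, edgeR adjusted p = 0.00528). Gata6 averaged 247 ± 22.3 CPM at day 12 and 173 ± 7.31 CPM in steady state (log2 fold change 0.49, adjusted p = 0.0149), and the groups overlapped in neither. AW112010, known in mice as an RNA induced by interferon, had 36.3, 40.0, 18.7 and 48.3 CPM at day 12, against 15.2, 11.7 and 9.82 CPM in steady state (log2 fold change 1.53, SE 0.29, edgeR adjusted p = 0.00727). It varied more within day 12 than Morrbid, with replicate 3 lowest, but did not overlap with steady state.

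The list of immune and macrophage lncRNAs held 9 members, of which 5 were called, all of them higher. Over all genes tested, 20.3% were called and 10.1% were called higher. The median log2 fold change of the list was 0.76, beside 0.00 over all genes tested. The 5 were 1700016F12Rik, Morrbid, Gata6os, AW112010 and Neat1. The other four, Gas5, Pvt1, Dubr and Gm15441, did not pass the test. That list was drawn up with earlier results of these data known, and it includes 1700016F12Rik, for which no role is given here. Its count and median are therefore no independent evidence. Of 2 imprinted members, Peg13, which lies inside Trappc9 and is expressed from the paternal copy, had 51.7, 41.5, 56.6 and 38.5 CPM at day 12, against 78.6, 75.8 and 76.4 CPM in steady state (log2 fold change -0.73, SE 0.14, edgeR adjusted p = 0.00737). Trappc9 had a log2 fold change of 0.13 (adjusted p = 0.545). The other imprinted member, Kcnq1ot1, averaged 6.47 ± 1.59 CPM at day 12 and 4.60 ± 1.02 CPM in steady state and did not pass (edgeR adjusted p = 0.194).

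Of the 12 listed snoRNA host genes among the members, Snhg6 alone passed the test, beside 33.5% of all members and 20.3% of all genes tested. Snhg6 had 13.0, 15.8, 9.95 and 14.3 CPM at day 12, against 8.62, 7.60 and 6.24 CPM in steady state (log2 fold change 0.80, SE 0.18, edgeR adjusted p = 0.0125). The groups did not overlap, but leaving out steady-state replicate 2 or 3 ended the call (adjusted p = 0.0529 and 0.0671). The median log2 fold change of the 12 was 0.33, beside 0.00 over all genes tested. Snhg15 was next, with 9.54, 10.7, 7.67 and 6.83 CPM at day 12, against 6.64, 4.92 and 5.21 CPM in steady state (log2 fold change 0.61, edgeR adjusted p = 0.0503), and then Snhg8 (0.33, adjusted p = 0.0746) and Snhg20 (0.56, adjusted p = 0.0986). Zfas1 averaged 31.2 ± 5.46 CPM at day 12 and 24.3 ± 5.06 CPM in steady state, with overlap. Snhg17 had the lowest log2 fold change of the list, -0.07.

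By coordinates, 14 members contain 44 snoRNA rows of the table. Those snoRNA rows held 0 counts in any library. Of the snoRNP proteins, which bind the mature snoRNAs, 1 of 19 was called: Fbl, the methyltransferase of box C/D particles, with 25.7 ± 4.77 CPM at day 12 and 17.1 ± 2.24 CPM in steady state (log2 fold change 0.56, edgeR adjusted p = 0.0366). The spliced RNAs of several snoRNA hosts are known targets of nonsense-mediated decay. Of 20 factors of that pathway, 1 was called: Smg5, with 149 ± 8.01 CPM at day 12 and 88.6 ± 2.41 CPM in steady state (log2 fold change 0.73, SE 0.09, edgeR adjusted p = 0.000954). Of 24 genes of the nuclear exosome and its adaptors, 0 were called by edgeR, 1 (Zfc3h1) had an unadjusted p under 0.05, and DESeq2 called 0. The median log2 fold changes of these 3 protein lists were 0.13, 0.02 and 0.01, in the order given. All genes tested had a median of 0.00, and 20.3% of them were called.

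Of 4 members named as miRNA host genes, Mir142hg and Mir22hg were called higher, beside 23.7% of all members and 10.1% of all genes tested. Mir142hg, host of the miR-142 that is typical of blood cells, had 44.0, 38.3, 45.1 and 36.8 CPM at day 12, against 24.4, 22.8 and 22.4 CPM in steady state, without overlap (log2 fold change 0.80, SE 0.12, edgeR adjusted p = 0.00155). Mir22hg had 13.5, 13.8, 10.8 and 6.65 CPM at day 12, against 5.09, 6.71 and 5.30 CPM in steady state (log2 fold change 0.94, SE 0.25, edgeR adjusted p = 0.0259). In Mir22hg day 12 replicate 4 lay just below steady-state replicate 2, and the call was lost in 5 of the 7 fits that left out a library, with adjusted p between 0.0513 and 0.102.

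Dleu2, host of miR-15a and miR-16-1, had 23.0, 18.99, 22.5 and 13.5 CPM at day 12, against 26.4, 26.3 and 26.2 CPM in steady state. All day 12 values were lower, and the test was not passed (log2 fold change -0.45, edgeR adjusted p = 0.101). Mir99ahg had 7.64, 7.95, 8.81 and 2.08 CPM at day 12, against 9.48, 9.20 and 8.70 CPM in steady state (log2 fold change -0.49, edgeR adjusted p = 0.428), with day 12 replicate 4 far below the other libraries. By coordinates, 9 members hold 12 miRNA rows, and 3 of these hosts were called higher and 1 lower. The further ones were Gm15987, with log2 fold change 1.83, and Gm35853, the one called lower. The median log2 fold change of the 9 hosts was 0.01, with 5 above 0. In all, 33.5% of the members and 20.3% of all genes tested were called.

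**Figure D3:**
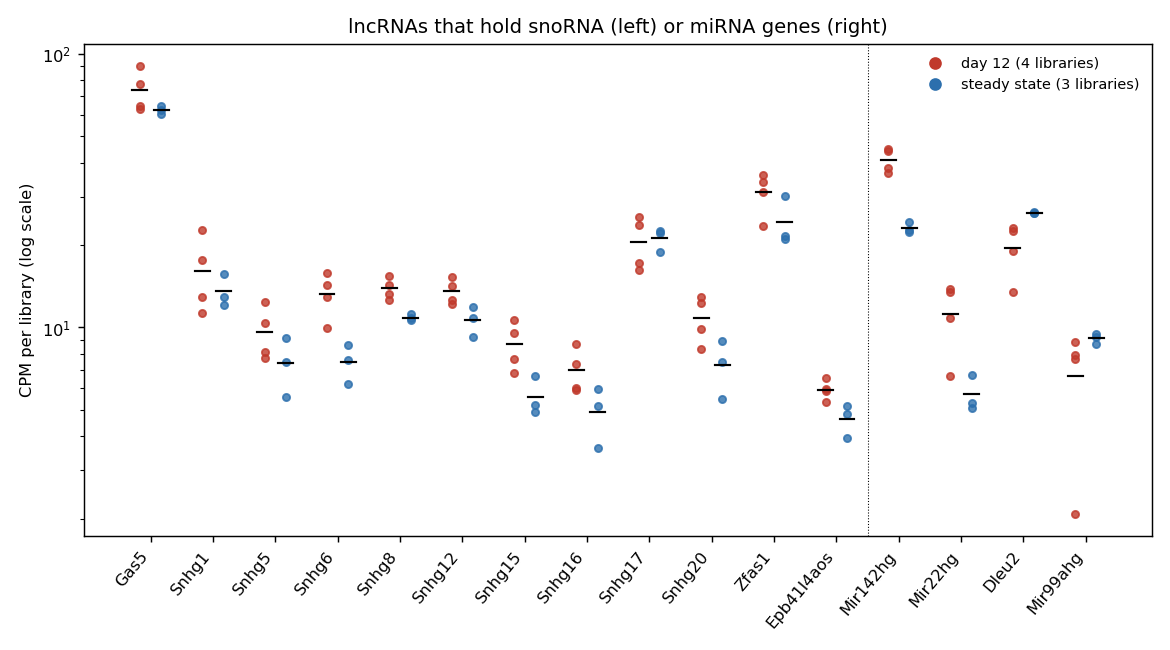
Points give the CPM of each library on a log scale for 12 lncRNAs that host snoRNA genes (left of the dotted line) and 4 that host miRNA genes (right), with means as bars. Among the 12 snoRNA hosts, Snhg6, Snhg8, Snhg12, Snhg15 and Epb41l4aos show no overlap between the 4 day 12 and the 3 steady-state libraries. Of these Snhg6 alone passed the test. The groups did not overlap in 42.9% of all members and in 34.4% of all genes tested. Among the miRNA hosts, Mir142hg is higher in all day 12 libraries.

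Members lie close to other genes. Of the 224, 155 overlap another row of the table, 121 on the opposite strand and 71 on the same strand, and 69 overlap none. The partner on the opposite strand reached 1 CPM in 86 cases. In GENCODE vM21, 98 members share exon bases with another gene. Among the 69 members free of any overlap, 21 were called higher and 8 lower. The shares called higher and lower were 23.7% and 9.82% of all members, and 10.1% and 10.2% of all genes tested.

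No source used here gives the strand setting of the authors' counting, and without strand the reads of overlapping genes cannot be told apart. For 26 members, an overlapping gene on the opposite strand stood at 20 or more times their own level. Of these 26, 3 were called, all higher, and of the other 198, 50 were called higher and 22 lower. The clearest case was Apol7d, which overlaps the start of the fibronectin gene Fn1 by 364 bases. It had 38.9, 30.1, 8.84 and 37.2 CPM at day 12, against 39.2, 48.7 and 34.7 CPM in steady state. Fn1 averaged 26810 ± 6657 CPM at day 12 and 51390 ± 3745 CPM in steady state.

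In the 15 members whose opposite-strand partner stood at 50 or more times their level, the count of the member as a percentage of that of its partner moved with the library. The median over the 15 was 1.77%, 0.763%, 0.326% and 0.780% in day 12 replicates 1 to 4, against 0.615%, 0.825% and 0.540% in steady-state replicates 1 to 3. In all 15 the share was highest of the day 12 libraries in replicate 1 and lowest in replicate 3. The order was less uniform in the 11 members whose partner stood at 20 to 50 times their level. Among those 11, replicate 1 was highest in 7 and replicate 3 lowest in 8. The 15 include Gm29233 opposite Thbs1, Gm16548 opposite F5, Gm26716 opposite Sdc3, Gm20663 opposite Gvin2, Gm15441 opposite Txnip, Fcnaos opposite Fcna and Gm19719 opposite Alox5ap. Gm19719 had 12.2, 4.04, 1.37 and 4.40 CPM at day 12, against 4.996, 6.13 and 3.40 CPM in steady state. Of the 15, edgeR called 0 and 3 had an unadjusted p under 0.05, while DESeq2 called 2 (ENSMUSG00000121227 opposite Lrg1, and Gm20663). The lowest edgeR adjusted p was 0.0730, for Gm20663. What sets the share was not tested, and the levels of these members are uncertain.

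**Figure D4:**
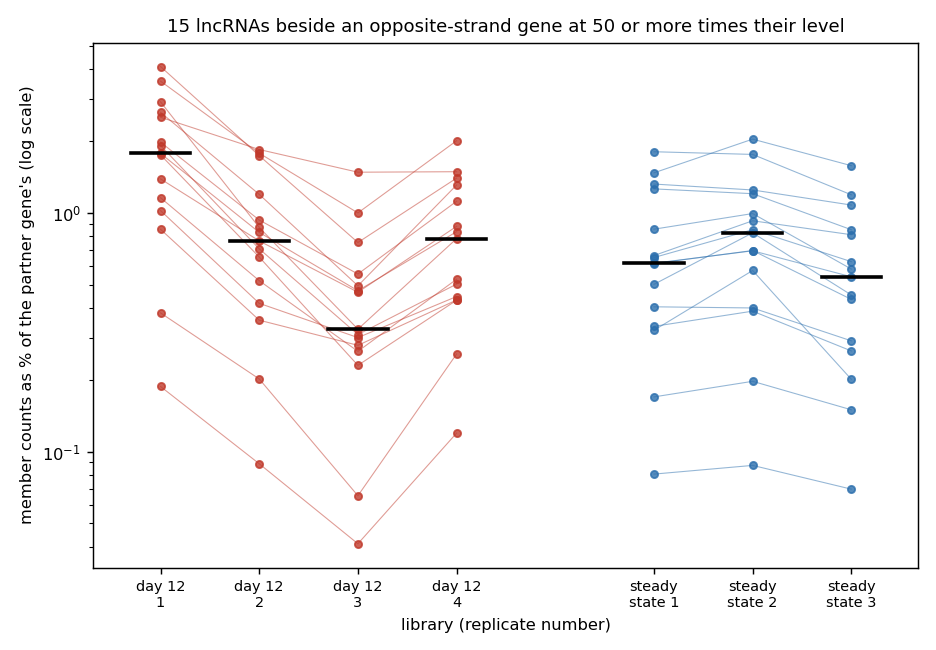
Points show, for each library, the count of an lncRNA as a percentage of the count of the overlapping gene on the opposite strand, on a log scale, for the 15 members whose partner stands at 50 or more times their level; thin lines link the same member and thick bars mark medians. Among the day 12 libraries, replicate 1 has the highest share for every member and replicate 3 the lowest, with medians of 1.77% and 0.326%.

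Over all 224 members, day 12 replicate 1 held the highest value of the 4 day 12 libraries in 88, replicate 2 in 51, replicate 3 in 41 and replicate 4 in 44. The lowest value was in replicate 4 in 92 members and in replicate 1 in 12.

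Members also overlapped, or lay just behind, genes of the same strand. There were 27 members that overlap, or begin within 5 kb after, a same-strand protein-coding gene at 20 CPM or more: 10 overlapping and 17 after. Of these 11 were called (40.7%, against 33.5% of all members and 20.3% of all genes tested), and in 5 the protein-coding gene was called too, 4 of them in the same direction. ENSMUSG00000121059 overlaps the span of the lipopolysaccharide receptor gene Tlr4. It had 46.9, 45.9, 42.4 and 23.9 CPM at day 12, against 15.9, 16.3 and 15.96 CPM in steady state. Its log2 fold change was 1.28 (SE 0.21, edgeR adjusted p = 0.00317). Tlr4 averaged 183 ± 42.9 CPM at day 12 and 89.1 ± 1.88 CPM in steady state (log2 fold change 1.01, adjusted p = 0.00498).

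ENSMUSG00000121092, 1579 bases after the neuropilin gene Nrp1, averaged 5.43 ± 1.96 CPM at day 12 and 11.9 ± 1.70 CPM in steady state (log2 fold change -1.15, edgeR adjusted p = 0.0195), and Nrp1 had a log2 fold change of -0.80 (0.000920). The call of ENSMUSG00000121092 was lost without steady-state replicate 2 or 3. The row 6530402F18Rik and Ntng2 had log2 fold changes of 0.57 and 0.56 (edgeR adjusted p = 0.0331 and 0.0103). The call of 6530402F18Rik was lost in 5 of the 7 fits that left out a library. The exception was ENSMUSG00000120425, which overlaps Dock8, a guanine nucleotide exchange factor gene. The lncRNA averaged 15.9 ± 0.841 CPM at day 12 and 11.7 ± 1.38 CPM in steady state (log2 fold change 0.42, edgeR adjusted p = 0.0403). Dock8 averaged 246 ± 23.1 CPM at day 12 and 429 ± 15.5 CPM in steady state (log2 fold change -0.83, edgeR adjusted p = 0.000748). That lncRNA also lost its call in 5 of the 7 fits. Whether such rows are separate RNAs cannot be told from a count per gene.

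Each member was set beside its nearest protein-coding gene that entered the test. Of the 75 called members, 37 had a called neighbour, which moved in the same direction in 26. That is 49.3% with a called neighbour, against 41 of the 149 members not called (27.5%) and 22.3% called among the protein-coding genes at the members' level. No test was made of these shares. Across members the log2 fold changes of the pair had Pearson's r = 0.31 and Spearman's rho = 0.40 (n = 223, without Ly6a2, which has no count in steady state). These points share libraries, and members are not independent replicates. Where the spans overlap, r was 0.27 (rho 0.39, n = 100). Without the members whose opposite-strand gene stood at 20 or more times their level, it was 0.20 (rho 0.27, n = 74). In 37 pairs on opposite strands whose starts lie within 1 kb, r was 0.69 (rho 0.47), and 0.47 (rho 0.42) without Gm36172 and Arg1. In this set 9 lncRNAs were called, and 3 of them with their neighbour: Gm36172 with Arg1, 9330133O14Rik with Mvd, and Gata6os with Gata6. Members called with a neighbour that was not include AI480526 beside Setd1b (log2 fold changes 0.65 and -0.20), Gm16675 beside the interferon regulatory factor gene Irf2 (0.91 and -0.35), Gm7160 beside Zcchc2 (1.24 and 0.38) and Gm13986 beside the thrombospondin gene Thbs1 (-0.82 and -0.99).

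**Figure D5:**
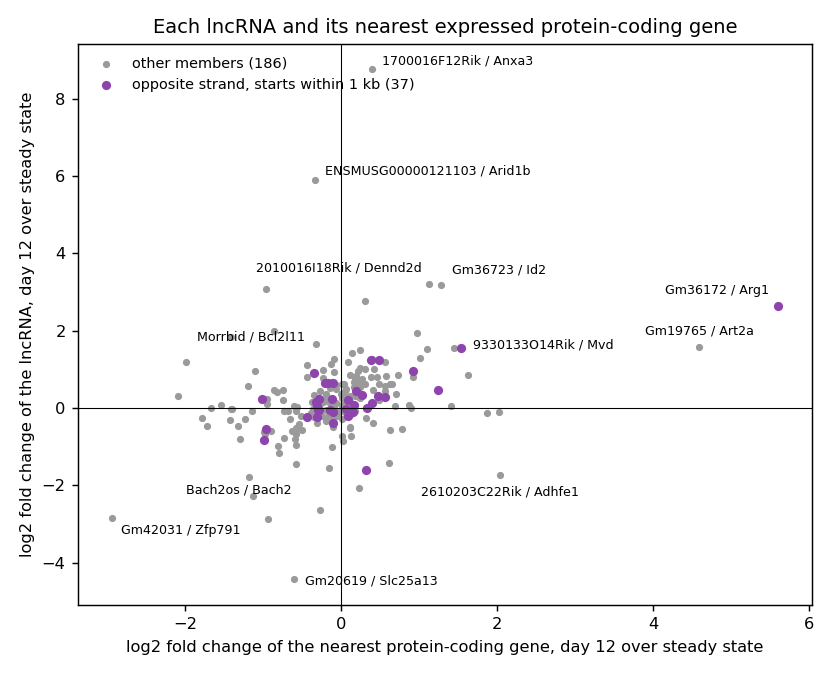
Each point is 1 of 223 lncRNAs, with its own log2 fold change (day 12 over steady state) on the vertical axis and that of its nearest tested protein-coding gene on the horizontal axis; purple points are the 37 pairs on opposite strands with starts within 1 kb. Gm36172 with Arg1 and 9330133O14Rik with Mvd are high on both axes, while 1700016F12Rik and ENSMUSG00000121103 are high on the vertical axis only; Ly6a2 is not drawn.

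Called members were spread over the autosomes. Chromosome 8 held 8 called higher and 2 lower of 18 members, chromosome 17 held 7 and 0 of 20, and chromosome 1 held 2 and 5 of 17. Chromosome 16 held 0 called of 5 members. Of all members, 23.7% were called higher and 9.82% lower, and of all genes tested 10.1% and 10.2%. No test of the counts by chromosome was made.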

How the data were processed

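The authors deposited raw gene counts in 1 table that also gives gene types and GRCm39 positions. The submitters' processing notes name featureCounts from Subread 2.0.6, the aligner STAR 2.7.11a, DESeq2 1.40.2, SAMtools 1.10 and FastQC. No source used here gives the annotation release, the strand setting or the treatment of multi-mapping reads. These could change overlapping genes and near-identical copies (C4a, Ly6a2). Groups came from the sample titles, which give 4 libraries at day 12 where the labels' protocol states 3 per condition.

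CPM were computed from the deposited counts and the column totals. The test was edgeR 4.0.16 (quasi-likelihood, robust, R 4.3.3) over all genes, with filterByExpr (minimum count 10, minimum total 15), TMM, the group as the only term and Benjamini-Hochberg adjustment at 0.05. P-values cover only the spread among these samples. Alternatives were other scalings, filters, DESeq2 1.42.0, limma-voom (limma 3.58.1), libraries left out and a replicate block. The procedure was tested on simulated data.

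The members and all lists were chosen with earlier results of these data known. Named members were the 10 most abundant, those with the 8 lowest p and the 8 largest changes in each direction, up to 4 per lncRNA list, those at the threshold and 6 with a high neighbour. Members named for their overlap, neighbour or spread were chosen after their values were seen. Promoter windows were those of the 3 largest rises and 2 largest falls listed in RefSeq, and of Morrbid. Some results on neighbouring and partner genes are not reported here.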

Additional observations from a re-analysis of the deposited data

Results flagged for a closer look

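In 16 of the 224 members (7.14%), 1 day 12 library stood apart from the other three by Dixon's criterion, which chance meets in about 1 of 20 groups (5%). Day 12 replicate 4 was that library in 10 of the 16, replicate 2 in 3, replicate 3 in 2 and replicate 1 in 1. The widest gap was in Ly6a2, a row of the Ly6 family of surface proteins with near-identical relatives. It had 53.9 CPM in day 12 replicate 4, against 4.20, 3.67 and 2.26 CPM in replicates 1 to 3 and 0 counts in every steady-state library. Against the floor of 3 counts over the steady-state group, the day 12 mean of 15.99 CPM was at least 542-fold higher. Without day 12 replicate 4 the day 12 mean was 3.37 CPM, at least 114-fold higher. With all libraries, the edgeR adjusted p was 0.0615.

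Day 12 replicate 4 was also highest in 2410006H16Rik (26.4 CPM), ENSMUSG00000121066 (10.5 CPM) and ENSMUSG00000121069 (12.4 CPM). It was lowest in AI662270 (32.9 CPM), A930007I19Rik (5.47 CPM), Gm32098 (4.28 CPM), Gm5165 (2.26 CPM), 6820431F20Rik (15.96 CPM) and Ppp4r1l-ps (16.9 CPM). This library had the lowest mitochondrial share, and whether that share has a part was not tested. Day 12 replicate 2 was highest in Pvt1 (11.1 CPM), Gm44751 (6.90 CPM) and Gm32089 (32.3 CPM, against 9.74 to 13.0 CPM in the other day 12 libraries). It also held the highest sum of B cell markers, whose part was not tested. Day 12 replicate 3 was lowest in Gm16675 (8.76 CPM) and highest in Gm28875 (19.1 CPM). Day 12 replicate 1 was highest in 4731419I09Rik (13.3 CPM), a member opposite Adam15. Of the 16, ENSMUSG00000121069, Gm16675 and Gm32098 were called.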

How the results depend on the processing

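With other scalings, filters, DESeq2 or limma-voom, 50 to 65 members were called higher and 20 to 25 lower, beside 53 and 22. Leaving out 1 library at a time gave 34 to 64 higher and 12 to 29 lower, and 1761 to 4599 called genes in all, beside 3242; the genes called were 1868, 1804 and 1761 without steady-state replicates 1, 2 and 3. The 69 members free of any overlap, fewer by construction, gave 21 higher and 8 lower. Members without a far higher opposite-strand gene, an alternative chosen after seeing the data, gave 50 and 22. A threshold of 2 CPM gave 439 members and one of 10 CPM 125. The log2 fold changes that changed sign were all of members not called. Leaving out 1 library at a time gave -0.023 to 0.26 for Oip5os1 (negative without day 12 replicate 3), -0.036 to 0.17 for Gm36161 (-0.0015 without steady-state replicate 2), -0.017 to 0.56 for Gm12992 (negative without day 12 replicate 4) and -0.29 to 0.27 for Gm16548 (-0.11 without steady-state replicate 3). Gm16548 was at -0.044 with limma-voom. The cause was not tested. With DESeq2, Snhg15, Snhg8 and Gm20663 also passed, and Snhg15 with DESeq2 size factors in edgeR.

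Replicate numbers are shared between groups but not said to pair samples, and the correlations of same-numbered deviations were -0.14, 0.01 and 0.20. With a replicate block, 4278 genes were called, and 62 members higher and 27 lower. Of the named members, Gm12992 was then at -0.067 and Gm16548 at -0.015, 6530402F18Rik lost its call (0.56, edgeR adjusted p = 0.0785), and Snhg15 (0.70), Kcnq1ot1 (0.62) and Gm20663 (1.81) gained one.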
